A study of Macaca mulatta with 5 samples.

Results

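Chromatin loops shorter than 100 kb were examined in Hi-C contact maps of cortical neurons from rhesus macaques (Macaca mulatta) that had received saline or morphine. A loop in these maps is a pair of genomic segments, its anchors, whose contact count stands above the counts around it. A loop was taken as short where the midpoints of its anchors lay under 100 kb apart, on any chromosome and with either of the anchor sizes in the lists, 5 or 10 kb. By this rule the saline map held 1976 short loops of 5507 loops, and the morphine map held 3142 of 8425. The shortest span was 35 kb for loops with 5 kb anchors and 50 kb for loops with 10 kb anchors, in both maps. Values on either side of the limit were close. In the saline map the 56 loops of 95 kb, which all have 5 kb anchors, had a median enrichment of 5.82-fold, and the 32 loops of 105 kb had 5.94-fold. In the morphine map the corresponding medians were 3.97-fold for 98 loops of 95 kb and 3.96-fold for 81 loops of 105 kb.

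The study asked how chronic morphine alters chromatin architecture in the primate brain. Its animals were males of 3 to 4 years, 2 in each group, and all were injected under the skin 3 times daily over 90 days. Morphine was given in rising doses of 3, 6, 9, 12 and finally 15 mg/kg, and the controls received saline (0.9%) in an equal volume, which was 0.5 mL/kg. The labels count 3 morphine and 2 saline libraries of purified adult cortical neurons, so the morphine libraries outnumber the animals they came from. Each group has 1 loop list, that is 1 map without replicates, and no difference between the maps was tested. The intervals given below are exact 95% intervals for counting error or for the scatter among loops. They leave out the spread between monkeys, and neighbouring loops on a chromosome are not independent. The lists carry no expression values, so the neuronal identity of the cells could not be checked in them.

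In vertebrate chromosomes most strong loops form when the cohesin ring extrudes chromatin until it is halted, usually by CTCF bound at both anchors in convergent orientation. Short loops lie mostly within a single topologically associating domain, and at this distance promoters also contact nearby enhancers and other promoters. Contact frequency between any 2 loci falls steeply with their distance, so a short loop has to stand out from a higher background than a long one. Hi-C cannot tell which protein or element holds an anchor.

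Short loops were more numerous in the morphine map, and the excess lay in the loops with 5 kb anchors. With 5 kb anchors there were 2092 short loops against 911, a ratio of 2.30 (95% interval 2.12 to 2.48). The short loops with 10 kb anchors numbered 1050 and 1065, a ratio of 0.986 (0.904 to 1.07). Among loops of 100 kb or more, both sizes were more numerous in the morphine map, with ratios of 2.02 (1.88 to 2.18) for 5 kb and 1.27 (1.21 to 1.34) for 10 kb anchors. Over both sizes the ratio was 1.59 (1.50 to 1.68) for short and 1.50 (1.43 to 1.56) for longer loops. As a result, 66.6% of the short loops of the morphine map had 5 kb anchors, against 46.1% in the saline map.

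Within the short range the ratio was largest at the shortest spans. Below 40 kb, where both lists hold 5 kb anchors only, there were 463 loops in the morphine map against 160 in the saline map, a ratio of 2.89 (2.41 to 3.49). With 5 kb anchors the ratio was 2.45 (2.14 to 2.80) at 40 to under 60 kb, 1.86 (1.59 to 2.18) at 60 to under 80 kb and 2.11 (1.78 to 2.51) at 80 to under 100 kb. The intervals of the 60 to under 80 kb class and of the class below 40 kb do not overlap. With 10 kb anchors the same 3 classes from 40 kb upward gave 0.934 (0.810 to 1.08), 1.01 (0.876 to 1.17) and 1.02 (0.867 to 1.21), and the ratio reached 1.49 (1.32 to 1.69) at 400 to under 800 kb. A high ratio with 5 kb anchors was not particular to the shortest loops. It was 1.96 to 2.03 in the classes from 100 to under 800 kb. At 800 kb or more it was 3.36 (2.07 to 5.69), with 74 loops against 22. In both maps the number of loops was highest at the shortest span of each anchor size. Loops with 10 kb anchors, for example, numbered 407 at 50 kb and 158 at 90 kb in the saline map, and 380 and 156 in the morphine map.

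**Figure D1:**
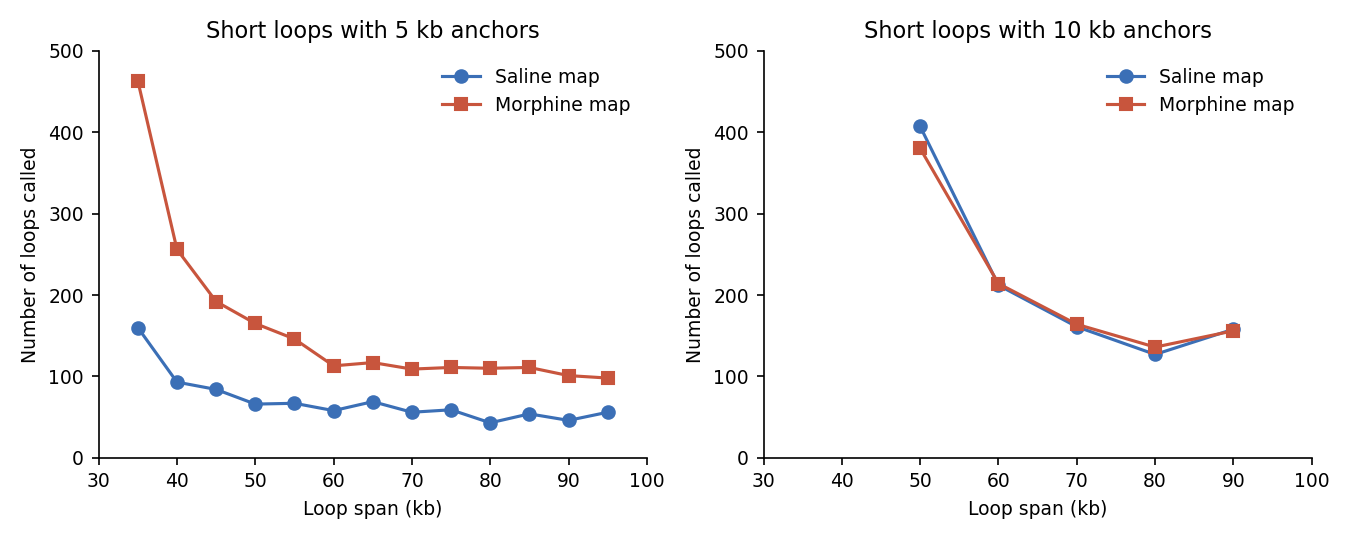
Number of loops under 100 kb (vertical axis) at each span in kb (horizontal axis), for loops with 5 kb anchors (left) and 10 kb anchors (right), with circles for the saline map and squares for the morphine map. The morphine map lies above the saline map at every span with 5 kb anchors, from 463 against 160 loops at 35 kb to 98 against 56 at 95 kb, while the 10 kb curves nearly coincide.

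The number of loops a map yields depends on its sequencing depth, which the sources used here do not give. The loop pixels of the morphine map held 239042 contacts in all and those of the saline map 119909. Short loops took 44.5% of these contacts in the morphine map against 41.6% in the saline map. The sums cover called loops only, so they grow with the number of loops and do not measure depth. How far depth accounts for the number of short loops was not tested, and the group cannot be told apart from the depth of its single map.

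The share of short loops among all loops varied between chromosomes, in a similar order in both maps. Chromosome 19, a small and gene-rich chromosome, had the highest share, with 180 short loops of 281 (64.1%, 58.1 to 69.7) in the saline map and 340 of 614 (55.4%, 51.3 to 59.4) in the morphine map. Chromosome 16 followed with 49.1% and 50.5%. The lowest shares were 19.4% (11.9 to 28.9) on chromosome 17 in the saline map and 23.9% (16.2 to 33.0) on chromosome 18 in the morphine map. Over the 21 chromosomes the shares in the maps had a Pearson r of 0.909 and a Spearman rho of 0.869, and r was 0.808 without chromosomes 16 and 19. This is a description of points that share the assembly and the caller.

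Per megabase of chromosome, measured up to the highest position in the lists, short loops varied more between chromosomes than longer ones. The saline map held 3.36 short loops per Mb on chromosome 19 and 0.0874 on chromosome X, a 38.5-fold range, against a 6.18-fold range for longer loops. In the morphine map these ranges were 33.7-fold and 12.9-fold, with 6.35 short loops per Mb on chromosome 19. The lower end of all these ranges was chromosome X, present in a single copy in these males. The lowest autosome of the saline map was chromosome 17, with 0.189 short and 0.787 longer loops per Mb. The highest value for longer loops there was 2.12 per Mb, on chromosome 16. Chromosomes 16 and 19 together held 17.1% of the short loops and 7.48% of the longer loops of the saline map, and 20.7% and 10.9% of those of the morphine map.

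**Figure D2:**
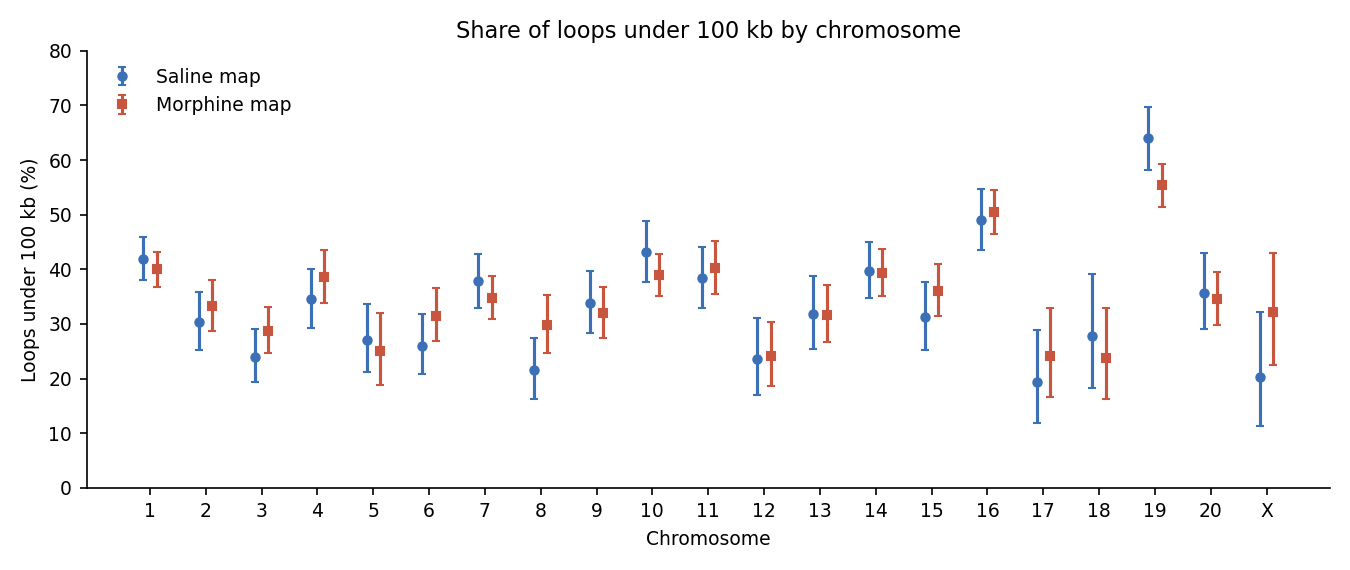
Share of loops with a span under 100 kb, in percent, on each chromosome, with circles for the saline map, squares for the morphine map and bars for exact 95% binomial intervals. Chromosome 19 stands highest in both maps (64.1% and 55.4%), and the intervals of the maps overlap on every chromosome.

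The excess of short loops in the morphine map was not uniform over the chromosomes. With 5 kb anchors the morphine map had more short loops on 19 of 21 chromosomes, and the interval of the ratio lay above 1 on 17. The exceptions were chromosome 5, with 20 against 21, and chromosome X, with 5 in each map. With 10 kb anchors the ratio was under 1 on 9 chromosomes. Chromosome 5 had fewer short loops in the morphine map, both sizes counted, 44 against 56 (ratio 0.786, 0.517 to 1.19). On chromosome X, present in a single copy in these males, there were 28 short loops in the morphine map against 13 in the saline map (2.15, 1.08 to 4.53), and the difference lay in 10 kb anchors, 23 against 8.

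Chromosomes 10, 16, 19 and 20, which are gene-rich in macaques, held 1035 short loops in the morphine map against 546 in the saline map, a ratio of 1.90 (1.71 to 2.11). On the other chromosomes there were 2107 and 1430, a ratio of 1.47 (1.38 to 1.58). For short loops this contrast lay in the 5 kb anchors, with ratios of 2.67 (2.34 to 3.06) on these 4 chromosomes and 2.11 (1.91 to 2.32) on the others. It was not particular to the set, whose single ratios with 5 kb anchors ran from 2.53 to 3.10. Chromosome 15 had 3.63 (2.28 to 5.96), chromosomes 3 and 8 had 2.53 and 2.50, and the remaining chromosomes lay lower. With 10 kb anchors the ratios of short loops were 0.917 (0.761 to 1.11) and 1.01 (0.912 to 1.11), which overlap. Longer loops had higher ratios on these 4 chromosomes with either anchor size, 3.61 (3.05 to 4.30) against 1.71 (1.57 to 1.86) with 5 kb and 1.50 (1.32 to 1.71) against 1.23 (1.16 to 1.31) with 10 kb anchors.

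A short loop held more contacts than a longer loop but stood less far above its surroundings. The loop pixel of a short loop held a median of 24 contacts in the saline map (quartiles 17 and 32, range 9 to 91) and 29 in the morphine map (quartiles 21 and 41, range 8 to 616). Longer loops held medians of 18 and 21. The background was taken from the donut, the ring of pixels around the loop, from which the caller derives the contacts expected there. Short loops had a median of 6.77 expected contacts in the saline and 9.37 in the morphine map, against 3.32 and 4.74 for longer loops.

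Enrichment, the observed contacts divided by the donut expectation, had a median of 3.41-fold (3.31 to 3.51) at short loops of the saline map and 2.98-fold (2.94 to 3.03) at those of the morphine map. Longer loops reached 5.39-fold (5.27 to 5.51) and 4.45-fold (4.39 to 4.53). The caller tests the excess of contacts over the background, so these medians describe called loops only. The lowest enrichment of a short loop was 1.76-fold in each map. How far the calling itself shifts the medians was not tested. Anchor size moved the values as well: with 5 kb anchors the short loops had medians of 4.81-fold (4.63 to 4.95) and 3.32-fold (3.24 to 3.38), and with 10 kb anchors 2.81-fold (2.75 to 2.87) and 2.51-fold (2.46 to 2.57). In each of these comparisons the morphine map had the lower median, and the intervals of the maps did not overlap.

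Both quantities moved steadily with span within the short range. With 5 kb anchors the median donut expectation went from 5.30 contacts below 40 kb to 2.59 at 80 to under 100 kb in the saline map, and from 10.4 to 5.37 in the morphine map. The median enrichment went the other way, from 3.34-fold to 5.90-fold in the saline map and from 2.64-fold to 4.13-fold in the morphine map.

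**Figure D3:**
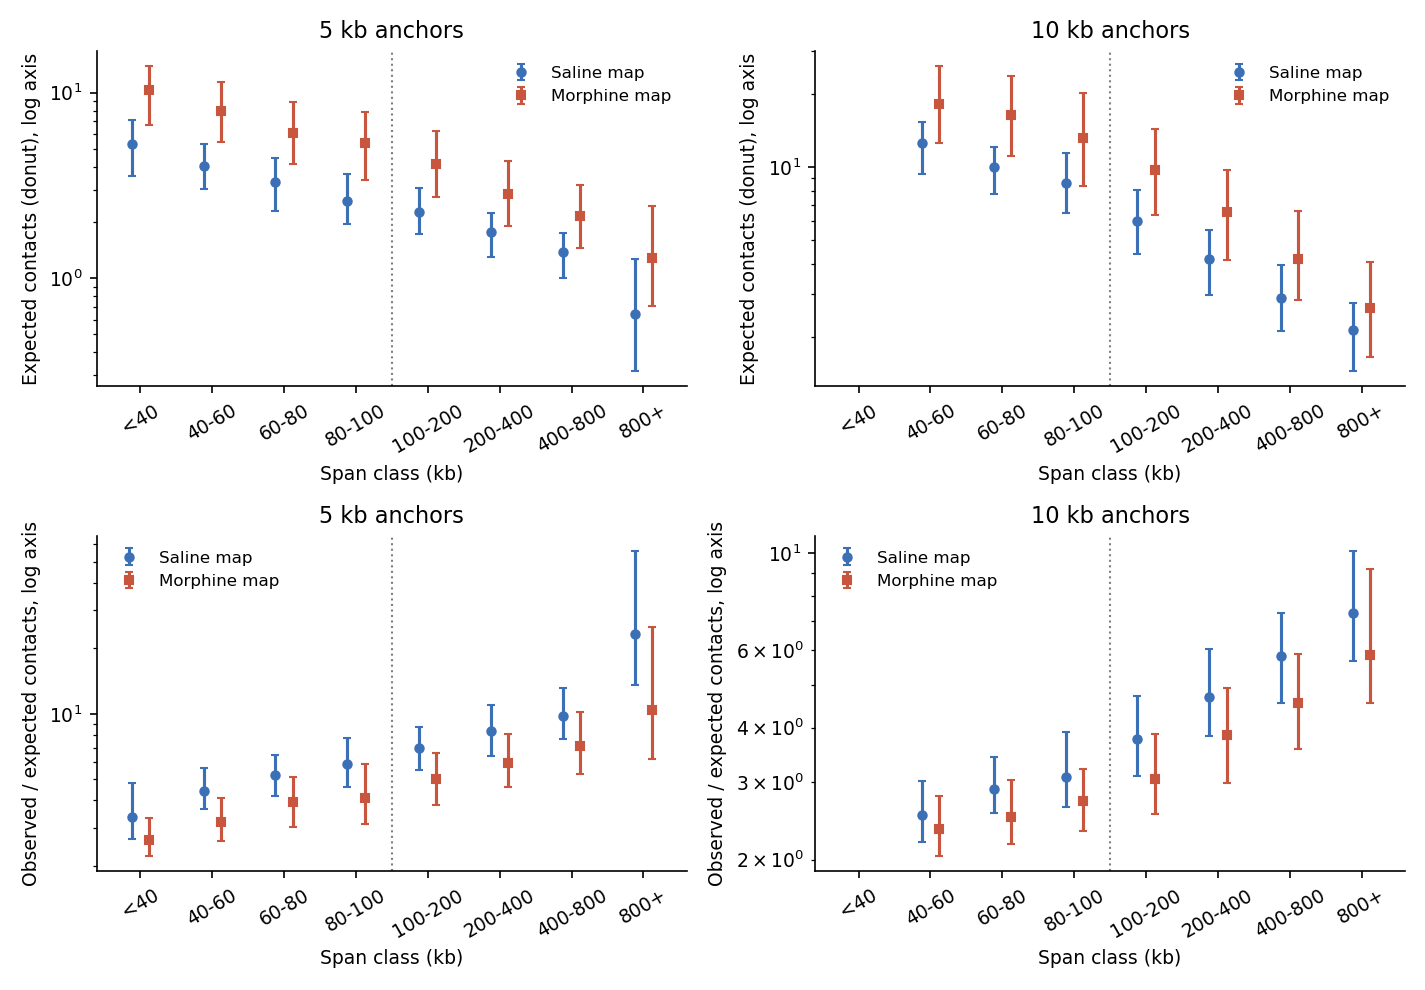
Median donut-expected contacts (top) and median enrichment, observed over expected contacts (bottom), in 8 span classes in kb, for 5 kb anchors (left) and 10 kb anchors (right), on log axes. Points are medians over loops, bars run from the lower to the upper quartile, and the dotted line marks 100 kb. Expected contacts fall and enrichment rises from the shortest class onward, with more expected contacts and lower enrichment in the morphine map in every class.

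The local background was most lopsided at the shortest loops. The caller also derives an expectation from the lower left corner, the pixels between the loop and the map diagonal, and from a horizontal and a vertical stripe. Below 40 kb the lower left expectation was a median of 0.801 times the donut expectation in the saline map and 0.830 times in the morphine map. It was 1.00 and 1.01 times at 80 to under 100 kb, and 1.05 times in both maps at 100 to under 200 kb. Over all short loops it was 0.936 and 0.942 times.

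Over both anchor sizes, short loops passed a strict limit on all 4 backgrounds less often than longer loops. All 4 false discovery rates were at or under 0.01 for 38.6% of the short loops of the saline map and 40.2% of those of the morphine map, against 51.5% and 48.5% of the longer loops. With 10 kb anchors the shares of the morphine map were close, 43.1% of short and 44.7% of longer loops, against 38.7% and 54.3% with 5 kb anchors. Over both sizes the donut was where they differed most, with 62.0% and 62.7% of short loops at or under 0.01 against 77.4% and 73.2% of longer loops. Against the lower left corner the shares were close, 71.5% and 72.5% for short and 74.5% and 72.1% for longer loops. The highest rate listed for a short loop was 0.499 in each map, so a listed loop need not pass a low rate on every background.

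The size of the merged pixel cluster also differed between the maps. Short loops merged from 5 or more pixels numbered 154 (7.79%) in the saline and 485 (15.4%) in the morphine map, and the largest clusters held 11 and 24 pixels. The share depended on anchor size. In the morphine map it was 19.7% of short and 26.6% of longer loops with 5 kb anchors, and 6.86% and 7.39% with 10 kb anchors. The saline shares were 11.4% and 11.3% with 5 kb anchors, and 4.69% and 5.63% with 10 kb anchors. Loops of a single pixel made up 16.6% of the short loops in the saline and 12.4% in the morphine map.

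The short loops with the most contacts all had 10 kb anchors and spanned 50 to 80 kb. Positions are those of the deposited lists, whose rhesus assembly is not named, and genes at the anchors were not analysed here. In the saline map the first was the loop between chr14:13390001-13400000 and chr14:13440001-13450000, with 91 contacts over 19.4 expected, a 4.70-fold enrichment (Poisson interval 3.78 to 5.77). It had no counterpart in the morphine list. The other 4 held 68 to 74 contacts, and 3 of them had a counterpart with 94 to 165 contacts.

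The loop between chr3:1830001-1840000 and chr3:1910001-1920000 was among the first 5 of both maps. It held 74 contacts over 18.2 expected in the saline map and 165 over 46.3 in the morphine map. Its enrichment was thus 4.08-fold (3.20 to 5.12) and 3.56-fold (3.04 to 4.15), with overlapping intervals.

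The morphine map's loop with the most contacts stood apart from all other short loops. It joined chr17:2330001-2340000 to chr17:2380001-2390000 with 616 contacts, but 346 were expected there, so that its enrichment was 1.78-fold (1.64 to 1.93). Its saline counterpart was called in the adjoining bins with 5 kb anchors and held 37 contacts over 14.2 expected. A second loop 20 kb further on, from chr17:2350001-2360000 to chr17:2400001-2410000, held 192 contacts over 79.4 expected and had no saline counterpart. The remaining 2 of the first 5 lay on chromosome 19. The loop between chr19:38530001-38540000 and chr19:38580001-38590000 held 245 contacts at 3.69-fold (3.24 to 4.18), against 64 contacts at 4.88-fold in the saline map.

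The most enriched short loops were called in both maps at the same, overlapping or adjacent bins. Each stood on a very low background in the map where it ranked. The highest in each map joined chr7:350001-355000 to chr7:440001-445000. It held 17 contacts over 0.201 expected in the saline map, or 84.7-fold (49.3 to 136), and 30 over 0.379 in the morphine map, or 79.1-fold (53.3 to 113). The loop between chr4:120855001-120860000 and chr4:120905001-120910000 reached 74.4-fold (38.4 to 130) with 12 contacts and 50.4-fold (31.6 to 76.3) with 22. That between chr7:168690001-168695000 and chr7:168765001-168770000 reached 45.0-fold (30.8 to 63.5) with 32 contacts and 32.8-fold (24.0 to 43.7) with 46. In all 3 the intervals of the maps overlapped. At the second loop of the morphine ranking, on chromosome 2, they did not. It had 75.1-fold (55.9 to 98.8), against 8.88-fold (6.74 to 11.5) over 6.53 expected contacts in the saline map. The ranked loop on chromosome 9 had 62.5-fold in the morphine and 25.7-fold in the saline map. In the saline ranking the loops on chromosome 14 and at chr7:78510001 had 38.2-fold and 33.1-fold, against 13.4-fold and 24.05-fold in the morphine map. All 5 of the highest in the saline map and all 5 in the morphine map had a counterpart in the other list.

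Short loops were found again in the other map less often than longer loops, except among the 10 kb anchors of the morphine map, where the intervals overlap. A loop counted as matched where both anchors, each extended by 10 kb, overlapped those of a loop in the other list. In the saline map 1172 of 1976 short loops were matched (59.3%, 57.1 to 61.5), against 64.1% (62.5 to 65.7) of longer loops and 62.4% of all its loops. In the morphine map 1174 of 3142 short loops were matched (37.4%, 35.7 to 39.1), against 42.9% (41.5 to 44.2) of longer loops and 40.8% of all. The shares of the maps are not symmetric because the morphine list is the longer one.

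The morphine loops below 40 kb had the lowest matched share, 115 of 463 (24.8%, 21.0 to 29.0), and with 5 kb anchors it was 52.4% (47.7 to 57.1) at 60 to under 80 kb. The share also differed with anchor size. In the saline map 72.9% (69.9 to 75.8) of short and 83.0% (80.5 to 85.2) of longer loops with 5 kb anchors were matched, and with 10 kb anchors 47.7% (44.7 to 50.7) and 56.2% (54.2 to 58.1). In the morphine map the shares were 41.7% (39.6 to 43.8) of short and 61.5% (59.4 to 63.6) of longer loops with 5 kb anchors, and 28.8% (26.0 to 31.6) and 30.4% (28.8 to 32.1) with 10 kb anchors. Matched short loops were more enriched than unmatched ones, with medians of 4.01-fold against 2.97-fold in the saline map and 3.58-fold against 2.75-fold in the morphine map. These medians mix the anchor sizes. With 5 kb anchors they were 5.12-fold against 4.01-fold (saline) and 4.00-fold against 3.00-fold (morphine). The gap was smaller with 10 kb anchors, 2.97-fold against 2.69-fold and 2.70-fold against 2.45-fold.

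Of the saline short loops, 1163 paired with a morphine loop as mutual best match. The span stayed under 100 kb in both maps for 1135 pairs, and was the same in 526. Where the anchor size differed within a pair, it was mostly finer in the morphine map. Of the 503 pairs with 10 kb anchors in the saline map, 294 had 5 kb anchors in the morphine map (58.4%, 54.0 to 62.8), compared with 43.2% (40.6 to 45.9) of longer pairs. Of the 660 with 5 kb anchors in the saline map, 90 had 10 kb anchors in the morphine map (13.6%, 11.1 to 16.5).

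At the 779 short pairs with the same anchor size in both maps, the morphine map had more observed contacts, with a median ratio of 1.63 (1.56 to 1.70). The donut expectation was higher by 1.96 (1.87 to 2.03), so that the enrichment ratio was 0.846 (0.830 to 0.871). Enrichment was lower in the morphine map at 545 of these pairs (70.0%). Over all 1163 pairs the ratio was 0.896 (0.876 to 0.924), and this figure mixes in pairs whose anchor size differs. It was 1.20 where the anchors went from 10 kb in the saline map to 5 kb in the morphine map and 0.622 in the opposite case. The enrichment ratio of the 1488 longer pairs of the same anchor size, 0.843 (0.828 to 0.862), did not differ from that of short pairs beyond the intervals.

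The background ratio, by contrast, was larger at short than at longer pairs, 1.96 against 1.59 (1.57 to 1.64), and this difference moved with the chromosomes. On chromosomes 10, 16, 19 and 20 it was 2.52 (2.42 to 2.62) at 248 short pairs and 2.59 (2.43 to 2.73) at 246 longer pairs. On the other chromosomes it was 1.61 (1.55 to 1.69) at 531 short pairs and 1.48 (1.42 to 1.53) at 1242 longer pairs. There the intervals overlapped within each anchor size. The ratios were 1.66 (1.58 to 1.77) and 1.57 (1.50 to 1.64) with 5 kb, and 1.53 (1.42 to 1.64) and 1.40 (1.34 to 1.47) with 10 kb anchors. Chromosomes 10, 16, 19 and 20 thus held 248 of the 779 short pairs but only 246 of the 1488 longer pairs. The anchor mix differed as well, with 5 kb anchors in 570 of the short and 698 of the longer pairs. Among the 20 chromosomes with 5 or more short pairs, the short ratio exceeded the longer ratio on 11.

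The background ratio of short pairs ran from 0.800 (0.586 to 0.963) on chromosome 5, with 10 pairs, to 2.91 (2.56 to 3.23) on chromosome 19, with 87 pairs. Chromosomes 10, 20 and 16 followed at 2.46, 2.36 and 2.33. Chromosome 5 was thus the lowest both in background and in the number of short loops relative to the saline map. Over the 20 chromosomes the background ratio and the ratio of short loop counts had a Pearson r of 0.729 and a Spearman rho of 0.630, and r was 0.618 over the 16 chromosomes without 10, 16, 19 and 20. Both measures come from the same 2 maps and share their depth. The enrichment ratio varied less, was under 1 on 19 of the 20 chromosomes, and was 1.08 (0.922 to 1.45) on chromosome 5.

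**Figure D4:**
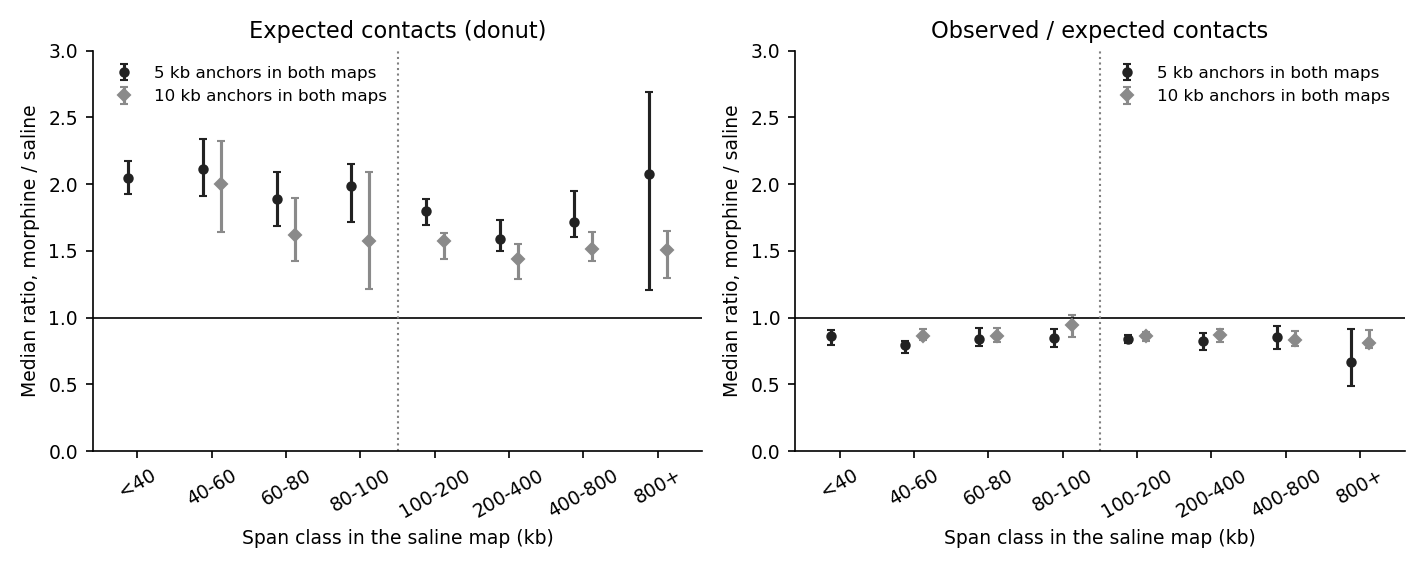
Median ratio, morphine over saline, of donut-expected contacts (left) and of enrichment (right) at matched loops whose anchors have equal size in both maps, by span class in kb, with circles for 5 kb anchors and diamonds for 10 kb anchors. Bars are exact 95% intervals of the median, the solid line marks equality and the dotted line 100 kb. The background ratio lies above 1 in every class and the enrichment ratio below 1, with similar enrichment ratios on both sides of 100 kb.

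The pairs whose enrichment differed most were taken from the 485 short pairs of the same anchor size with 50 or more contacts over both maps. At the lowest end the loop between chr20:4025001-4030000 and chr20:4060001-4065000 had 20 contacts at 12.96-fold (7.92 to 20.02) in the saline map, and its counterpart, shifted by 5 kb, had 33 at 2.57-fold (1.77 to 3.61) in the morphine map. The expected contacts were 1.54 and 12.8, so the difference lay in the background. The other 4 of the lowest 5 had ratios of 0.284 to 0.328 and lay on chromosomes 1, 7 and 19.

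At the highest end the loop between chr2:7160001-7170000 and chr2:7220001-7230000 had 58 contacts at 8.88-fold (6.74 to 11.5) in the saline map. Its counterpart at chr2:7150001-7160000 and chr2:7210001-7220000 had 51 at 75.1-fold (55.9 to 98.8) in the morphine map, with 0.679 expected contacts against 6.53. The next, from chr20:2650001-2655000 to chr20:2700001-2705000, had 19 contacts at 3.82-fold (2.30 to 5.97) in the saline map. It had 71 at 17.3-fold (13.5 to 21.8) in the morphine map, where its second anchor lay 10 kb further on, and there the observed contacts differed. The other 3 of the highest 5 had ratios of 1.96 to 2.44. In these 10 pairs at least 1 anchor lay in a different bin in the other map, so the values compare neighbouring pixels rather than the same pixel.

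The authors deposited 1 differential loop list per map, by a rule that is not stated, and in both maps short loops were listed more often than longer ones. Of the saline short loops 107 of 1976 were listed (5.41%, 4.46 to 6.51), against 2.72% (2.21 to 3.31) of longer loops and 3.69% of all. Of the morphine short loops 282 of 3142 were listed (8.98%, 8.00 to 10.03), against 5.96% (5.34 to 6.64) of longer loops and 7.09% of all. A loop of the other map lay within 10 kb for 7 of the 107 and 10 of the 282, against 59.3% and 37.4% of all short loops. Among listed longer loops this held for 0 of 96 and 0 of 315. How far the unstated rule itself leaves out matched loops is not known.

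The gap between short and longer loops depended on anchor size. In the morphine map 9.61% (8.38 to 11.0) of short and 4.07% (3.27 to 5.00) of longer loops with 5 kb anchors were listed. With 10 kb anchors the shares were 7.71% (6.17 to 9.497) and 7.23% (6.35 to 8.19), which do not differ beyond their intervals. In the saline map the shares were 4.28% (3.06 to 5.81) against 1.05% (0.527 to 1.88) with 5 kb anchors, and 6.38% (4.99 to 8.02) against 3.42% (2.74 to 4.21) with 10 kb anchors.

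**Figure D5:**
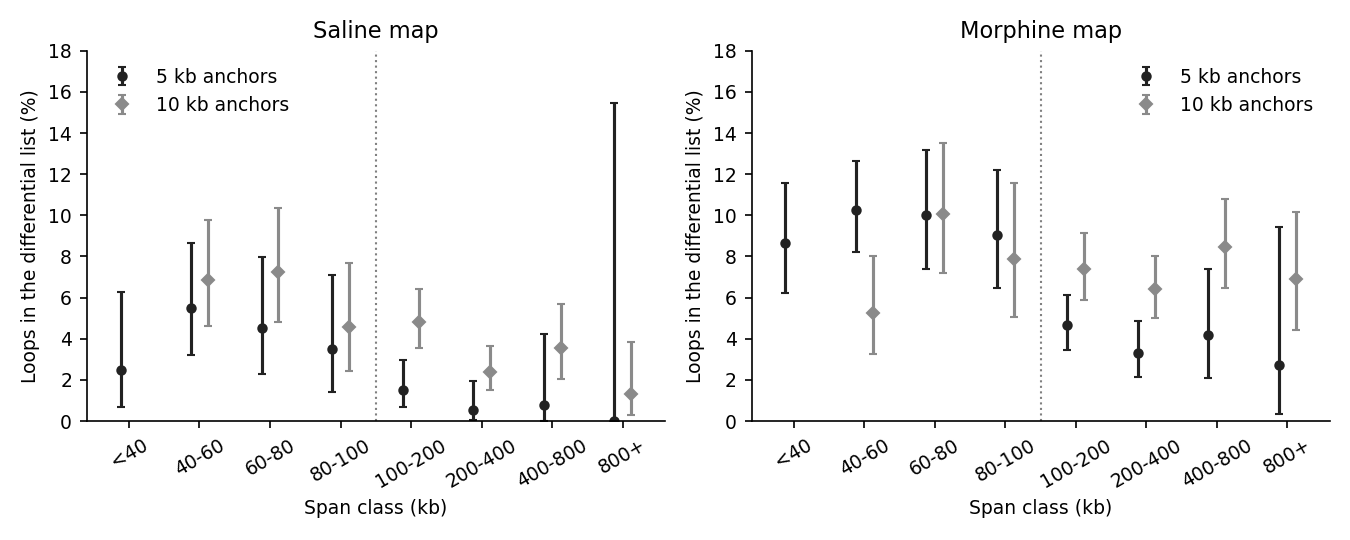
Share of loops, in percent, that stand in the authors' differential list, by span class in kb, for the saline map (left) and the morphine map (right), with circles for 5 kb anchors, diamonds for 10 kb anchors and bars for exact 95% binomial intervals. Left of the dotted line at 100 kb the shares of the morphine map lie between 5.26% and 10.3%.

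The listed short loops were less enriched than the unlisted ones. They had median enrichments of 2.89-fold (saline) and 2.67-fold (morphine), against 3.46-fold and 3.01-fold for unlisted short loops. The strict limit of 0.01 on all 4 backgrounds was met by 16.8% and 15.6% of the listed and by 39.9% and 42.6% of the unlisted short loops. In the saline list the most contacts, 46 over 14.2 expected, lay between chr13:92810001-92820000 and chr13:92860001-92870000, a 3.25-fold enrichment (2.38 to 4.33). The next was the loop from chr7:44980001-44990000 to chr7:45050001-45060000, with 42 contacts. It had a morphine counterpart with 50 contacts, although it was listed, and its highest rate was 0.493.

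In the morphine list the first was the loop from chr19:37470001-37480000 to chr19:37520001-37530000, with 106 contacts over 49.8 expected, or 2.13-fold (1.74 to 2.57). The second, from chr10:6830001-6840000 to chr10:6890001-6900000, had 102 contacts at 1.98-fold (1.61 to 2.40), merged from 8 pixels. None of the first 5 of this list had a saline counterpart. By chromosome, the listed share of short loops was 9.71% (33 of 340) in the morphine map against 4.44% (8 of 180) in the saline map on chromosome 19, and 8.09% against 3.82% on chromosome 16, with intervals that hold the shares of each whole map. On chromosome 10 it was 12.4% (31 of 251, 8.55 to 17.1) against 2.14% (3 of 140, 0.444 to 6.13). Chromosomes 5, 7, 17, 18 and X had the larger share in the saline map, with overlapping intervals on each. It was 14.3% (8 of 56, 6.38 to 26.2) against 4.55% (2 of 44, 0.555 to 15.5) on chromosome 5. On chromosome 7 it was 8.33% (12 of 144, 4.38 to 14.1) against 3.59% (7 of 195, 1.46 to 7.26). Chromosomes 17, 18 and X had 2 to 4 listed short loops per map, with 23.1% (3 of 13) against 14.3% (4 of 28) on chromosome X.

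Many short loops were nested in or attached to longer ones. In the saline map 403 of 1976 short loops shared an anchor with a loop of 100 kb or more (20.4%, 18.6 to 22.2), and in the morphine map 882 of 3142 did (28.1%, 26.5 to 29.7). The shared anchor was the left one alone in 196 and 414 loops and the right one alone in 181 and 391, so neither side prevailed. Wholly inside a longer loop lay 854 short loops of the saline map (43.2%, 41.0 to 45.4) and 1910 of the morphine map (60.8%, 59.1 to 62.5). Both shares move with the number of longer loops, 3531 for saline and 5283 for morphine, and the part of that number in the difference was not tested. Short loops inside a longer loop had a lower median enrichment than those outside, 3.16-fold against 3.64-fold in the saline map and 2.86-fold against 3.22-fold in the morphine map. The direction held within each anchor size in both maps.

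Short loops standing alone, neither inside a longer loop nor sharing an anchor with one, numbered 1065 in the saline map (53.9%, 51.7 to 56.1) and 1146 in the morphine map (36.5%, 34.8 to 38.2). The absolute number was thus similar, while the short loops inside a longer loop or sharing an anchor with one numbered more in the morphine map. Both numbers move with the number of longer loops, which was larger in the morphine map, and its part was not tested.

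Short loops rarely followed each other anchor to anchor. Where the right anchor of a short loop overlapped the left anchor of the next, the loops formed a chain. The saline map held 60 chains of 2 loops and 4 of 3, and the morphine map 128 and 4. A further loop joined the outer ends in 6 of the 60 and 15 of the 128. The chain of 3 from chr16:7860001 to chr16:8080000 was present in both maps. Its loops held 35, 25 and 46 contacts in the saline map and 67, 61 and 119 in the morphine map, with enrichments of 2.45, 6.05 and 2.71-fold and of 2.04, 3.99 and 2.11-fold. The chain at chr10:37640001-37840000 in the saline map was closed by a further loop, and its 3 loops held 36 to 39 contacts. The other named chains lay at chr19:37025001-37210000 in the saline map and at chr14:122645001-122850000 and chr19:12660001-12800000 in the morphine map.

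Most short loops lay within a domain, as did most longer loops. Both anchors fell in 1 domain of the authors' domain list of the same group for 90.7% (89.4 to 92.0) of the saline and 87.8% (86.6 to 88.9) of the morphine short loops. The shares of longer loops were only a little lower, 87.5% (86.3 to 88.6) and 83.1% (82.1 to 84.1). A boundary bin of 40 kb lay wholly between the anchors of 20 saline (1.01%) and 33 morphine (1.05%) short loops, against 5.72% and 7.16% of longer loops, a share that depends on the span itself. An anchor lay within 40 kb of a boundary bin in 177 short loops of the saline map (8.96%, 7.73 to 10.3) and 303 of the morphine map (9.64%, 8.63 to 10.7).

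Counted per anchor, closeness to a boundary was similar for short and longer loops. It applied to 5.77% (5.06 to 6.54) of short and 5.11% (4.61 to 5.65) of longer loop anchors in the saline map, and to 6.29% (5.70 to 6.91) and 6.14% (5.69 to 6.62) in the morphine map. The zone within 40 kb of a boundary bin covered 5.38% and 5.59% of the length from the first to the last boundary. Short loops near a boundary had a median enrichment of 3.59-fold against 3.38-fold elsewhere in the saline map, and 3.38-fold against 2.95-fold in the morphine map. No intervals were computed for these medians, which pool both anchor sizes. Those near a boundary rest on 177 and 303 loops.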

How the data were processed

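Hi-C loop and domain lists were used as deposited, 1 full loop list, 1 differential loop list and 1 domain list per group. Per the file headers, the loop lists have the column layout of the HiCCUPS caller and give observed contacts and merged pixels as counts, expected contacts from 4 local backgrounds as a signal, and an FDR (q-value) against each; the deposited radius was not used. The authors' domain lists give positions in 40 kb bins and boundary scores, which were not used here. Aligner, caller settings, the pooling of libraries and their depth are not given in the sources used here. As build, the submitters' processing notes name hg19, but the lists hold 20 autosomes and X with positions past the hg19 chromosome ends, so the rhesus assembly is unknown, the rule behind the differential lists is not stated and no sequence or gene was assigned. Positions are 1-based.

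Spans, enrichments, matches (both anchors overlapping by at least 1 bp after an extension of 10 kb; mutual best matches for ratios) and shares were computed in Python 3.11.15 with numpy 2.4.6, pandas 2.3.3, scipy 1.17.1 and matplotlib 3.10.9. Shares have Clopper-Pearson intervals, count ratios exact conditional binomial intervals, medians order-statistic intervals and single loops exact Poisson intervals, all at 95%. Matching was tested only on a simulated list, a copy of the saline list whose shared loops kept their span and anchor size. Pairs that differ in span or anchor size were not covered by it. No test between groups was possible with 1 map each. The domain boundary bin is the bin next to each domain end.

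Named loops are, in each map, the 5 short loops with the most contacts, the 5 with the highest enrichment among those with all 4 FDR values at or under 0.01 and the 5 listed as differential with the most contacts; the 5 lowest and 5 highest enrichment ratios among pairs with 50 or more contacts; and 3 of the longest chains per map, with ties taken in the order of chromosome labels. The loops, classes and chromosomes set apart here were chosen with earlier results of these data known. The alternatives were other span limits, anchor sizes, FDR limits, backgrounds, match distances and chromosome sets.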

Additional observations from a re-analysis of the deposited data

How the results depend on the processing

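Of 111 values recomputed under the alternatives for 15 results, 46 stayed within the 95% interval of the reported value, 64 moved outside it and 1 changed side. The last was the ratio of short loop counts, 1.59, which was 0.986 with 10 kb anchors only. Where the saline and morphine values are paired below, the saline value comes first, and no cause of a shift was tested. No paired analysis was possible because each list is 1 map per group and holds no values of single libraries, so no replicate could be left out either.

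With 5 kb anchors only, in both lists, the count ratio was 2.30, the short shares 46.6% and 49.7%, the enrichment medians 4.81 and 3.32, the matched shares 63.2% and 27.4%, the enrichment ratio at matched loops 0.831, the listed share of the saline map 4.28% and the shares with an anchor in a longer loop 4.61% and 12.8%. With 10 kb anchors only, the short shares were 29.99% and 24.9%, the enrichment medians 2.81 and 2.51, the matched shares 19.8% and 20.1%, the ratio of expected contacts 1.73, the listed share of the morphine map 7.71% and the shared-anchor shares 16.3% and 19.1%. Without chromosomes 10, 16, 19 and 20 the count ratio was 1.47, the short shares 32.6% and 34.2% and the ratio of expected contacts 1.61. With 20 or more contacts per loop the count ratio was 1.98.

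With all 4 FDR values at or under 0.01 the short shares were 29.6% and 33.0%, the enrichment medians 4.81 and 3.92, the matched shares 50.1% and 30.2%, the listed shares 2.36% and 3.49% and the shared-anchor shares 11.0% and 16.4%. A span limit of 80 kb gave enrichment medians of 3.28 and 2.88 and a shared-anchor share of 30.2% in the morphine map, and a limit of 120 kb gave medians of 3.52 and 3.04. The lower left, horizontal and vertical backgrounds gave medians of 3.70 and 3.25, 3.16 and 2.76, and 3.10 and 2.74. Matched shares were 28.1% and 17.8% with no extension of the anchors, 50.5% and 32.0% with 5 kb, and 66.9% and 43.1% with 20 kb. Anchors shared within 10 kb raised the shared-anchor shares to 35.2% and 47.9%. The boundary shares were 4.15% and 4.11% for the bin itself and 12.9% and 13.8% within 80 kb.

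Chosen after seeing the data were 3 further settings. Short loops with 5 kb anchors against all loops of the other map had matched shares of 72.9% and 41.7%, and those with 10 kb anchors 47.7% and 28.8%. Pairs of the same anchor size gave an enrichment ratio of 0.846. Under every alternative run for them, the morphine map had the lower enrichment median, and the ratio of expected contacts at matched loops stayed above 1 and that of enrichment below 1. The saline matched share was the larger except with 10 kb anchors only. Depth per library is unknown, and loops of few contacts limit the precision of single enrichments.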

Other observations

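The short loops were also counted in windows of 1 Mb by their centre, and the windows named here were chosen after their values were seen. Windows with 5 or more short loops numbered 60 in the saline and 188 in the morphine map, and held 17.9% and 39.9% of the short loops. Those with 10 or more numbered 2 and 20. Both of the saline windows lay on chromosome 19. The window chr19:17000001-18000000 held 11 short loops in the saline and 10 in the morphine map, and chr19:38000001-39000000 held 10 and 14. The latter contains the loop with 245 contacts in the morphine map.

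Of the windows ranked by their morphine count, chr16:48000001-49000000 held 13 short loops in the morphine map against 5 in the saline map, and chr16:44000001-45000000 held 12 and 4. Longer loops in these windows numbered 5 against 3 in both cases. That ranking by itself favours a lower saline count. Over all of chromosome 16 the ratio of short loops was 1.97 (1.62 to 2.40). Ranked instead by the saline count, chr19:39000001-40000000 held 9 short loops in each map, with 4 longer loops in the morphine map against 0 in the saline map.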
